A study of Mus musculus with 220 samples.

Results

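Kupffer cell identity genes were described in the livers of Ath-HMDP mice. The members were 10 genes taken by symbol (Clec4f, Vsig4, Cd5l, Timd4, Marco, Msr1, Cd163, C1qa, Adgre1 and Csf1r), together with every probe set of the array that carried 1 of those symbols and no other. They had 13 of the 45037 probe sets and were 10 of the 17097 genes measured. Msr1 had 4 probe sets and the other 9 genes had 1 each. Where a gene had several, the brightest by its mean over all mice stood for it.

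The 220 mice were female F1 offspring, 24 weeks old, of mothers from 96 inbred or recombinant inbred strains. All fathers were C57BL/6J with 2 human transgenes, APOE-Leiden and CETP, so that every mouse, C57BL/6J offspring included, carried both and a C57BL/6J set of chromosomes beside the maternal set. Chow was fed for 8 weeks, after which every mouse received the Western diet for 16 weeks. Of the conditions in the labels, groups differed only by maternal strain, with 9 strains of 1 mouse, 51 of 2, 35 of 3 and 1 of 4. Mouse numbers in the labels spanned a median of 2 within a strain, in a range of 1 to 1649. Strain thus cannot be fully told apart from anything that goes with that number. By name the strains fell into BXD (34 strains, 83 mice, from C57BL/6J and DBA/2J), AXB/BXA (21, 47 mice, from A/J), CXB (8, 17 mice, from BALB/cJ), BXH (4, 8 mice, from C3H/HeJ) and 29 classical inbred strains (65 mice). Among the BXD maternal strains was BXD24/TyJ-Cep290<rd16>/J, whose name gives the rd16 allele of Cep290. The fathers were heterozygous for APOE-Leiden and homozygous for CETP, and only offspring with both transgenes were kept. Where in the genome the transgenes lie was not established here. Values are log2 RMA intensities, for which the median probe set had a mean of 3.46, so that a difference of 1 is a doubling of intensity.

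Arrays had medians between 3.43 and 3.56, and the mean level of 12 hepatocyte genes in progenitor mice ran from 12.08 to 12.44, near the top of the scale. Of 211 mice from strains with 2 or more, 200 resembled their own strain best over the 500 probe sets with the highest share of variance between strains. Another strain fitted better by more than 0.2 in Pearson r for 5 mice, called below the mice that went against their labels. They were BXD21/TyJ replicate 3 and both mice of BXH19/TyJ and of CXB3/ByJ. Each mouse was compared with its strain without itself, which in BXH19/TyJ and CXB3/ByJ was the other mouse alone. A single wrong label would make both fail there, so the check cannot tell which mouse was wrong. Strain and panel results of BXD21/TyJ, CXB and BXH are given also without these 5 mice.

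Kupffer cells are the resident macrophages of the liver sinusoid, where they take up particles, aged erythrocytes and modified lipoproteins. Their identity is known to depend on signals from neighbouring sinusoidal endothelial, stellate and hepatic cells, and on transcription factors such as ID3, ZEB2 and liver X receptor alpha. CLEC4F marks Kupffer cells in mice, TIMD4 marks those of embryonic origin, and C1QA, F4/80 (Adgre1), MSR1 and CSF1R are made by macrophages more widely. Because RNA came from whole liver, fewer Kupffer cells and less RNA per Kupffer cell cannot be told apart.

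The promoters of the genes that carry the main contrasts below are shown as read from RefSeq on GRCm38.p6, which is C57BL/6J sequence, over the 250 bases before a transcript start, which for Timd4 lies inside the annotated gene span. The windows are chr6:83656117-83656366, minus strand, for Clec4f and chrX:96293439-96293688, minus strand, for Vsig4, the pair whose strain means moved together most closely. Those of Timd4, at chr11:46810549-46810798 on the plus strand, Marco, at chr1:120505025-120505274 on the minus strand, and Cd5l, at chr3:87357631-87357880 on the plus strand, are shown for the widest and the narrowest strain ranges of intensity. Capitals mark matches on either strand to GAGGAAG, a PU.1 motif, or TGCTGAC, part of a MAF recognition element.
Clec4f: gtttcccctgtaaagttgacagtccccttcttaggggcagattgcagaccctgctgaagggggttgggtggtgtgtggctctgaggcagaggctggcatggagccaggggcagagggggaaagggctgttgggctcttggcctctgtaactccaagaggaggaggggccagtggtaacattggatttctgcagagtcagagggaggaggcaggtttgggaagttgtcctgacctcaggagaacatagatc
Vsig4: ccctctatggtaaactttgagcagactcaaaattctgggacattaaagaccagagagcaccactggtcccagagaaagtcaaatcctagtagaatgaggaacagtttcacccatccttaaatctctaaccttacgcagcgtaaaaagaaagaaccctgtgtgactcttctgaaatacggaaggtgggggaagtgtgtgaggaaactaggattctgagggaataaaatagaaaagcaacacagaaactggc
Timd4: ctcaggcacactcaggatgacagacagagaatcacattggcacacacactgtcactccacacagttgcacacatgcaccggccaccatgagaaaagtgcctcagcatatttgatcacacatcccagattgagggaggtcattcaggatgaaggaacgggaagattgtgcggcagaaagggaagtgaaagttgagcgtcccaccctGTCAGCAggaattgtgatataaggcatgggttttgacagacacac
Marco: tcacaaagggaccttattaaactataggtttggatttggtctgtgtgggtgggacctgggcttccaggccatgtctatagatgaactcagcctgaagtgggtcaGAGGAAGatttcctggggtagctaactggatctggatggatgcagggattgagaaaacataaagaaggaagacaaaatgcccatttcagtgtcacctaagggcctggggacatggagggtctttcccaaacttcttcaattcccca
Cd5l: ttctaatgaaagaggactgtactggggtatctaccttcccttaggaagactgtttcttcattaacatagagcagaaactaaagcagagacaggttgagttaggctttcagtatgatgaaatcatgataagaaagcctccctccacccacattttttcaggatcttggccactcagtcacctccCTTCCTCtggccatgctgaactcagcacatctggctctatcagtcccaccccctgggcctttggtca
Marco held GAGGAAG from 146 to 140 bases before the start and Cd5l held it in reverse from 67 to 61, as did 10.6% of 32851 promoter windows of the same length for either strand. Timd4 held TGCTGAC in reverse from 45 to 39 bases before the start, against 3.81% of windows. The windows of Clec4f, Vsig4 and Cd163 held neither, and none of these 6 windows held AGGTCA repeated after a gap of 4 bases, a liver X receptor element found in 0.0152% of windows. No matches overlapped. Each match is a description of letters, and windows of Msr1, C1qa, Adgre1 and Csf1r were not used here.

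The first question was how far the members differed with maternal strain. All 10 differed between strains (limma F-test, 87 strains, 211 mice), against 59.2% of all genes and 87.1% of genes above the median signal. The share of variance between strains had a median of 0.627 over the members, 0.251 over all genes and 0.423 over genes above the median signal. Timd4 had the highest share (0.732) and Cd163 the lowest (0.185, adjusted p = 0.0174). Cd163, a haemoglobin-haptoglobin receptor, had a mean of 2.51, below the median probe set, and its call was lost without replicate 1 of each strain (adjusted p = 0.534) and without replicate 3 (adjusted p = 0.401). Without the 5 mice that went against their labels, all 10 were still called and shares ran from 0.186 for Cd163 to 0.753 for Timd4.

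Clec4f, a C-type lectin of the Kupffer cell surface that binds galactose-bearing glycans, had strain means from 6.14 to 9.73, a 12.0-fold range, and a share of 0.629. The mice of BXD40/TyJ read 6.20, 5.09 and 7.14, those of C57BLKS/J 7.72 and 5.93, and those of BXD61/RwwJ 6.00 and 7.75. At the other end, BUB/BnJ mice read 9.52, 9.56 and 10.11, SJL/J mice 9.86, 9.86 and 9.33, and FVB/NJ mice 10.01, 9.68 and 9.16. No mouse of the 3 low strains reached any mouse of the 3 high strains, although mice within a low strain lay up to 2.05 apart. The strains were picked by these same values, so the lack of overlap is a description and no test. Against the mean of the other strains BXD40/TyJ was lower by 2.29 (SE 0.29, adjusted p = 2.91e-09), and Clec4f was called in 13 strains, 4 of them higher. Over all gene and strain pairs 4.69% were called, and 7.17% over genes above the median signal. These shares are also the background for the counts of strains given for the other members.

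Vsig4, the complement receptor CRIg by which Kupffer cells bind C3b-coated particles, had a narrower range, from 8.58 in BXD40/TyJ (8.66, 8.16 and 8.92) to 10.70 in CXB6/ByJ (10.77 and 10.64), and a share of 0.619. LP/J mice read 8.64 and 8.85 and C57BLKS/J mice 9.05 and 8.47, while SM/J mice read 10.53 and 10.60 and SWR/J mice 10.33 and 10.57. BXD40/TyJ and C57BLKS/J were thus among the 3 lowest strains for both genes, whereas LP/J was low in Vsig4 and had Clec4f at a mean of 8.24. Vsig4 was called in 14 strains, 6 higher and 8 lower.

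Timd4, a phosphatidylserine receptor for apoptotic cells, had means from 2.71 to 6.65, a 15.4-fold range, and was called in 31 strains (13 higher, 18 lower), the most of any member. BXH22/KccJ mice read 2.74 and 2.68, BXD40/TyJ mice 2.64, 2.89 and 2.80, and BXD61/RwwJ mice 2.65 and 3.02, all below the median probe set mean of 3.46. BXD50/RwwJ mice read 6.45 and 6.86, BUB/BnJ mice 5.90, 6.53 and 7.05, and SWR/J mice 6.30 and 6.63. Mice of 1 strain could lie far apart: BXD43/RwwJ mice read 4.61 and 7.66, and the 4 BXD20/TyJ mice read 4.93, 3.33, 5.70 and 3.25.

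Marco, a class A scavenger receptor for bacteria and particles, had the widest range of strain means, 2.97 to 8.03 (33.4-fold), and also the widest spread among mice of a strain (SD 0.948), with a share of 0.418. BXD50/RwwJ mice read 7.89 and 8.18, the single C57L/J mouse 7.54, and BXD48/RwwJ mice 7.65 and 6.63. I/LnJ mice read 2.62 and 3.32, BTBR T<+> tf/J mice 2.97, 3.22 and 2.96, and SEA/GnJ mice 3.26, 3.41 and 2.70. Marco was called in 5 of 96 strains, all higher, a share near the 4.69% of all gene and strain pairs. One of the 5 strains, BXD43/RwwJ, had mice at 5.20 and 8.85, and its mouse with the higher Marco was also the one with the higher Timd4. In BXD20/TyJ the mice with Timd4 at 4.93 and 5.70 had Marco at 6.76 and 6.48, and those with Timd4 at 3.33 and 3.25 had Marco at 4.39 and 4.01.

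The secreted members had narrow ranges. Cd5l, a macrophage-made inhibitor of apoptosis that circulates with IgM, spanned 11.90 in BXD64/RwwJ (11.72 and 12.07) to 12.75 in CXB6/ByJ (12.87 and 12.63), a 1.81-fold range with a within-strain SD of 0.130 and a share of 0.618. AXB8/PgnJ (12.44 and 11.45) and BXD50/RwwJ (12.11 and 11.80) were also low, and BXH6/TyJ (12.80 and 12.68) and BXA16/PgnJ (12.60, 12.69 and 12.82) were high. C1qa, the A chain of complement C1q, which starts the classical pathway, spanned 9.50 in BXD75/RwwJ (9.19 and 9.80) to 10.71 in BXA7/PgnJ (10.83, 10.63 and 10.66), CXB11/HiAJ and BXA1/PgnJ, the last 2 with 1 mouse each. NOD/ShiLtJ (9.73 and 9.44) and BXD50/RwwJ (9.71 and 9.55) were the next lowest. Of the strains called, Cd5l had 6 higher and 7 lower, and C1qa 7 higher and 10 lower.

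Msr1, a class A scavenger receptor for modified lipoproteins, ran from 7.07 in AXB2/PgnJ (7.31, 6.99 and 6.92) to 9.06 in CXB7/ByJ (9.10, 8.91 and 9.17), with a share of 0.662. Next came BXD55/RwwJ (6.89, 7.84 and 7.24) and BXD75/RwwJ (7.05 and 7.78) at the low end, and CBA/J (8.72 and 8.81) and CXB6/ByJ (8.83 and 8.68) at the high end. Its 4 probe sets correlated over strain means with r from 0.695 to 0.945, and shares lay between 0.572 and 0.678. CBA/J, high in Msr1, was the fourth lowest strain in Clec4f (6.46 and 7.30). Cd163 was called in 3 of 96 strains, all higher, a share below the 4.69% of all gene and strain pairs. Each of these strains had a mouse near the median of all strains: AXB8/PgnJ mice read 2.39 and 4.86, BXD50/RwwJ mice 2.65 and 4.46, and BXD55/RwwJ mice 4.28, 2.48 and 3.42. The lowest strain means of Cd163 were 2.26 in AXB5/PgnJ, 2.27 in BXH6/TyJ and 2.28 in AKR/J, within 0.25 of the median strain mean of 2.46.

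Adgre1, which encodes the macrophage surface protein F4/80, spanned 7.48 in BXD75/RwwJ (7.25 and 7.70) to 9.24 in BXA7/PgnJ (9.84, 8.96 and 8.92), with a share of 0.627. AXB2/PgnJ (7.88, 7.61 and 7.32) and BXD55/RwwJ (7.20, 8.27 and 7.42) were low, and CXB6/ByJ (8.85 and 9.27) and SM/J (8.86 and 9.15) were high. Csf1r, the receptor through which CSF1 and IL-34 maintain macrophages, spanned 7.01 in BXD55/RwwJ (6.91, 7.26 and 6.87) to 8.29 in BXH6/TyJ (8.24 and 8.33), with a share of 0.628. BXD64/RwwJ (6.91 and 7.15) and BXD36/TyJ (7.30, 6.86 and 7.15) were low, and NZW/LacJ (8.28 and 8.14) and BXA7/PgnJ (8.26, 8.01 and 7.98) were high. In the order of strain means, neighbouring strains differed by less than 1 within-strain SD throughout for 7 members. The exceptions were a gap of 0.68 above BXD40/TyJ in Clec4f (within-strain SD 0.514), of 0.30 below CXB7/ByJ in Msr1 (SD 0.230) and of 0.32 below BXD55/RwwJ in Cd163 (SD 0.268).

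**Figure D1:**
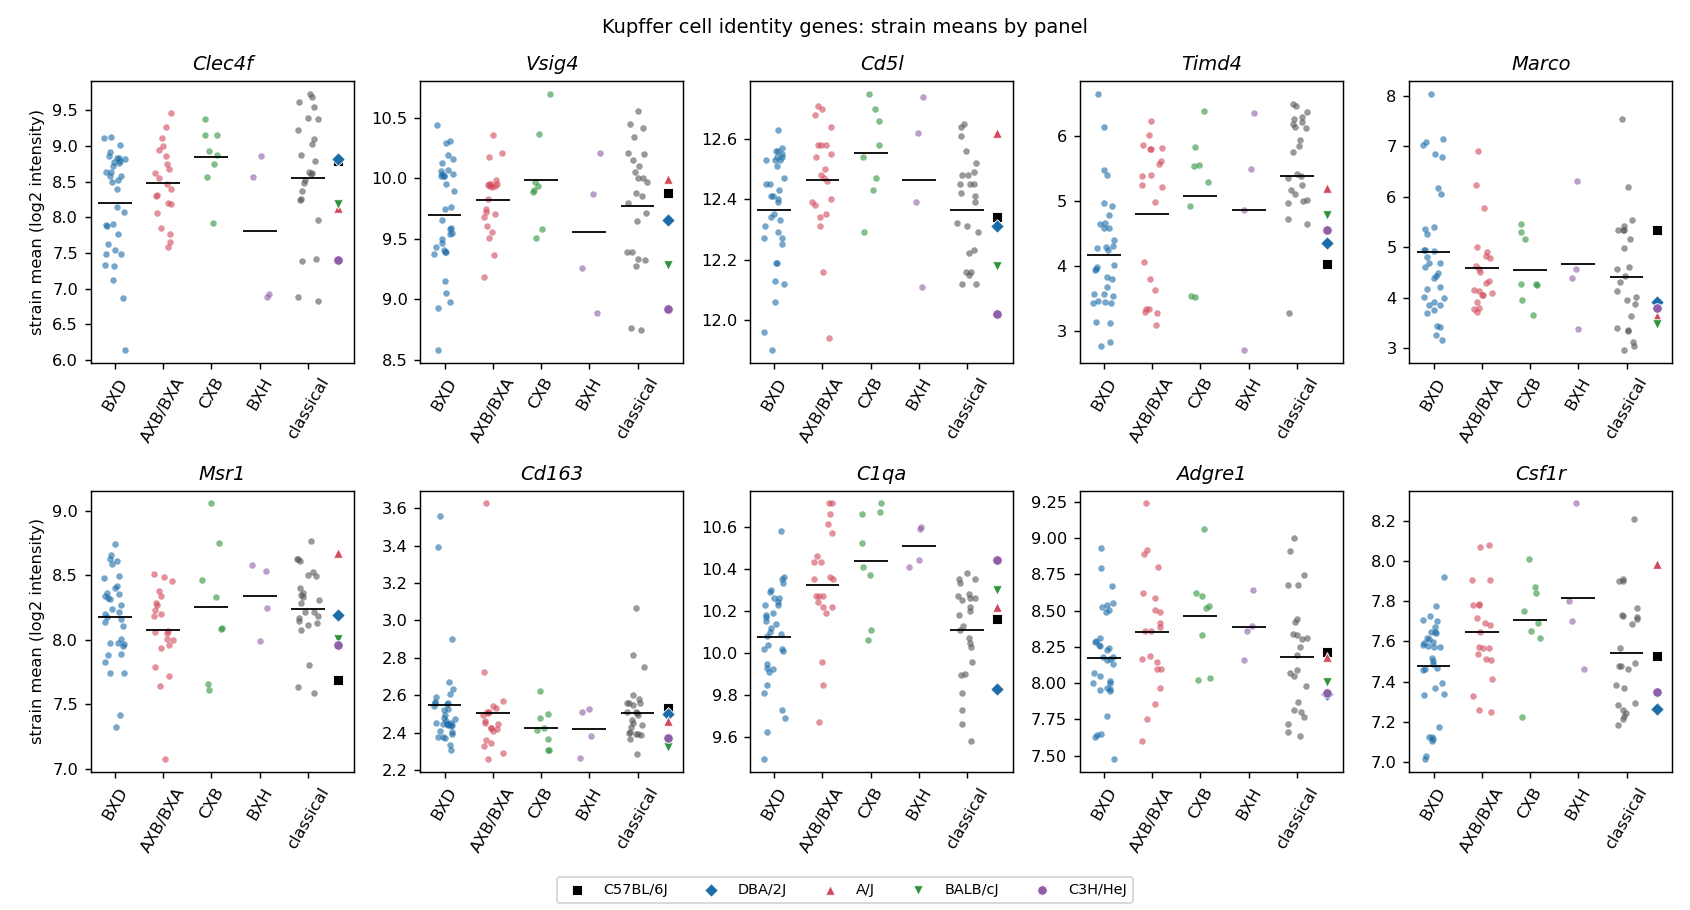
Strain means of the 10 members (vertical axis, log2 intensity), by panel, each point being a strain, lines the panel means and symbols at the right edge the 5 progenitors. Marco, Timd4 and Clec4f spread over 33.4-, 15.4- and 12.0-fold ranges, while Cd5l spans 1.81-fold and most Cd163 points lie near 2.46.

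The second question was which strains differed in several members at once. Of 960 pairs of member and strain, 139 were called, in 59 strains, and 149 were called without the mice that went against their labels. Over all gene and strain pairs 4.69% were called, and 7.17% over pairs of genes above the median signal. In 17 strains 3 or more members were called in 1 direction. CXB6/ByJ was higher in 7 (Vsig4, Cd5l, Timd4, Msr1, C1qa, Adgre1 and Csf1r), while 0.860% of all genes were higher there. BXA16/PgnJ was higher in 6 (Clec4f, Vsig4, Cd5l, Timd4, Adgre1 and Csf1r, background 1.68%) and BXH6/TyJ in 4 (Cd5l, Timd4, C1qa and Csf1r, background 2.32%). SM/J was higher in Vsig4, Timd4 and Adgre1 (background 3.60%) and BXA7/PgnJ in C1qa, Adgre1 and Csf1r (3.26%). The median member difference was 0.53 in CXB6/ByJ and 0.55 in BXA16/PgnJ, against medians of -0.02 and 0.01 over all genes.

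Lower members fell into different combinations. BXD75/RwwJ was lower in Timd4, Msr1, C1qa, Adgre1 and Csf1r, where 4.80% of genes were lower, and BXD55/RwwJ in Cd5l, Msr1, C1qa, Adgre1 and Csf1r, where 11.0% were lower. C1qa and Adgre1 were also lower with Msr1 and Csf1r in BXD36/TyJ (background 1.74%), with Msr1 in AXB2/PgnJ (11.6%) and with Csf1r in BXD73/RwwJ (4.52%). BXD55/RwwJ had Clec4f at 8.86, 8.86 and 8.75, within the middle of all strains, beside the lowest Csf1r mean. By contrast Clec4f, Vsig4 and Timd4 were all lower in BXD40/TyJ (background 4.35%), C57BLKS/J (3.11%), BXH22/KccJ (1.36%) and BXD21/TyJ (0.456%), and in BXD40/TyJ Cd5l read 12.44, 12.37 and 12.52 and C1qa 10.19, 10.43 and 10.24, near the strain medians of 12.43 and 10.22. BXD21/TyJ included the mouse that resembled BXD32/TyJ, which read 7.03 for Clec4f beside 6.99 and 7.95 in the other two. Without it Vsig4 (adjusted p = 0.0162) and Timd4 (0.0491) were still lower in BXD21/TyJ, where 0.445% of genes then were, and the Clec4f call was lost (-0.93, adjusted p = 0.15). Members were called in opposite directions in 11 strains, a count for which no background was computed. In BXA4/PgnJ Cd5l, C1qa and Csf1r were higher (background 3.27%) and Timd4 lower. BXD50/RwwJ was higher in Timd4, Marco and Cd163 (background 5.25%) and lower in Cd5l and C1qa (7.91%), and CXB7/ByJ was higher in Cd5l, Msr1 and C1qa (4.80%) and lower in Timd4 (mice at 3.43, 3.23 and 3.97).

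The third question was whether the progenitors of the recombinant inbred panels differed from C57BL/6J. All 4 contrasts share the same 2 C57BL/6J mice. Msr1 read 7.62 and 7.76 in C57BL/6J and 8.65, 8.90 and 8.48 in A/J, with no overlap. The difference was 0.98 (SE 0.21, adjusted p = 0.000411 in limma), and the other 3 Msr1 probe sets were called in the same direction. It was the only member called in A/J, where 5.91% of genes were higher and 4.61% lower. Timd4 read 4.35 and 3.70 in C57BL/6J and 4.96, 5.58 and 5.09 in A/J, a difference of 1.18 (SE 0.53, adjusted p = 0.186). Csf1r was 0.46 higher in A/J (SE 0.17, adjusted p = 0.0785). Fitted on the 5 progenitor strains alone, with a spread taken from 13 mice, Timd4 and Csf1r were also higher and Marco lower in A/J, where 5.71% of genes were higher and 4.90% lower in that fit.

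In C3H/HeJ only Vsig4 was called among the members, where 3.15% of genes were lower and 5.38% higher. It read 9.08 and 8.76, against 9.99 and 9.77 in C57BL/6J, and was lower by 0.96 (SE 0.30, adjusted p = 0.0366). Leaving out any 1 of the 4 mice ended the call (adjusted p from 0.0761 to 0.35). Clec4f read 7.73 and 7.08 in C3H/HeJ and 8.98 and 8.60 in C57BL/6J, a difference of -1.38 (SE 0.50, adjusted p = 0.0862). No member was called in limma for DBA/2J, where 1.12% of genes were higher than in C57BL/6J and 0.983% lower, or for BALB/cJ, where 5.52% were higher and 4.20% lower. At an unadjusted p under 0.05 there were 2 in DBA/2J (Msr1 and C1qa, against 12.1% of all genes) and 2 in BALB/cJ (Vsig4 and Marco, against 23.0%). The same count was 5 in A/J (23.2%) and 3 in C3H/HeJ (22.8%).

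Marco read 5.51 and 5.16 in C57BL/6J and between 3.26 and 4.24 in the 11 mice of the other 4 progenitors, without overlap. The differences of -1.42 to -1.85 had SEs of 0.85 to 0.93, since mice of a strain spread widely over all strains, and none was called. With the 5 progenitor strains alone, Marco was lower in all 4 contrasts (adjusted p from 0.000688 to 0.00941), where 0.936% (DBA/2J) to 4.90% (A/J) of genes were lower. Clec4f in DBA/2J (8.70, 9.14 and 8.60) overlapped C57BL/6J, with a difference of 0.03 and a 95% interval of -0.88 to 0.94.

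Other genes of the same cells were read beside the members, from lists of known markers. In A/J, 8 of 23 other Kupffer cell genes were higher and 1 lower, with a list median difference of 0.28 against 0.00 over all genes. Those higher included Vcam1, an adhesion molecule (1.20), Sirpa, the receptor for CD47 (1.05), the efferocytosis kinase Mertk (0.75) and cathepsin B (Ctsb, 0.49). In DBA/2J none was higher and 1 lower (list median -0.13), in BALB/cJ 2 were higher and 4 lower (-0.01), and in C3H/HeJ 1 was higher and 2 lower (-0.08). The folate receptor Folr2 was lower by 1.08 in A/J, 1.40 in DBA/2J and 1.30 in C3H/HeJ. Kcna2, a potassium channel expressed in mouse Kupffer cells, was lower by 1.07 in BALB/cJ and 1.47 in C3H/HeJ, while C6, a complement component, was higher by 1.15 and 1.25 in the same strains.

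Of 26 genes of the CSF1 axis and of macrophage transcription factors, 3 were higher in A/J and none lower: Csf2rb, the common beta receptor chain (1.35), Spi1, which encodes PU.1 (1.11), and Tgfbr1 (0.60). None of the list was higher in the other 3 progenitors, where 1 was lower in DBA/2J, 1 in BALB/cJ and 2 in C3H/HeJ. Id3, a factor known to maintain Kupffer cells, was lower by 0.74 in DBA/2J and 0.85 in C3H/HeJ, and Id1 by 1.45 in C3H/HeJ. In A/J 15 of 24 pan-macrophage genes and 11 of 16 lipid-associated macrophage genes were higher and none lower, and 7 of 19 sinusoidal endothelial genes were lower. Of 22 other scavenger receptor genes, 2 were higher and 1 lower in A/J. The mean level of the pan-macrophage list was 9.21 to 9.53 in the A/J mice and 8.63 to 8.77 in C57BL/6J, and that of the lipid-associated list was 10.01 to 10.16 and 9.13 to 9.35. Macrophage genes shared by other macrophages thus moved in the same contrast as Msr1, and their part in the Msr1 difference was not tested. In BALB/cJ 12 of 19 sinusoidal endothelial genes were lower, and in C3H/HeJ 3 of 19 were lower and 6 of 9 cholangiocyte genes higher. The endothelial list's mean level was 5.96 to 6.07 in C3H/HeJ and 6.46 to 6.66 in C57BL/6J, and its part in the Vsig4 difference was not tested.

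The fourth question was whether panels differed. Of the members, Timd4 (adjusted p = 0.00438) and C1qa (adjusted p = 0.000846) differed between panels in limma's F-test on strain means, where 8.72% of all genes were called. Timd4 averaged 4.17 ± 0.88 in BXD (SD, 34 strains), 4.80 ± 1.11 in AXB/BXA (21), 5.08 ± 1.04 in CXB (8), 4.86 ± 1.56 in BXH (4) and 5.39 ± 0.80 in the classical strains (29). It was lower in BXD than in the classical strains by 1.22 (SE 0.24, adjusted p = 0.000913, background 1.15%). C1qa averaged 10.08 ± 0.23 in BXD, below AXB/BXA by 0.25 (SE 0.07, adjusted p = 0.0109, background 9.29%) and below CXB by 0.36 (SE 0.09, adjusted p = 0.0274, background 1.47%). That last call was lost with only strains of 2 or more mice (adjusted p = 0.0816), and held without the CXB3/ByJ and other mice that went against their labels (0.0203). With mice as the unit and strain as a random block, Clec4f (adjusted p = 0.0372), Cd5l (0.0142) and Csf1r (0.00348) were called as well, as were 21.5% of all genes. That fit used 1 correlation of 0.183 for every probe set, below the shares of 0.618 to 0.629 of these 3 genes.

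Within panels, strain differences were called for 9 members in BXD (background 42.2%), 8 in AXB/BXA (29.0%), 2 in CXB (1.95%), 2 in BXH (1.75%) and 9 in the classical strains (45.4%). Cd163 was called in none of the 5. Marco was called in BXD (share 0.597) and in the classical strains (0.466) but not in AXB/BXA (0.0550). Timd4 had a share of 0.891 in AXB/BXA and 0.889 in CXB, against 0.477 in BXD. The 2 called in CXB were Timd4 and Msr1 (0.820), and the 2 in BXH were Clec4f (0.844) and Vsig4 (0.922). Without CXB3/ByJ, whose mice went against their labels, the same 2 were called in CXB (shares 0.892 and 0.886), where the background was then 8.59%. Without BXH19/TyJ, Timd4 (adjusted p = 1.34e-05) and Marco (adjusted p = 0.000845) were called in BXH too, beside Clec4f and Vsig4, with a background of 4.68%. The 2 mice of BXH19/TyJ had read 6.35 and 3.38 for Timd4.

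In AXB/BXA the Timd4 strain means were split at their largest gap, as can be done for any gene. A set of 8 strains lay between 3.10 and 4.06 and the other 13 between 4.99 and 6.23, with a gap of 0.94. The gap was 0.30 of the Timd4 range. It was larger for Msr1 (0.40) and Cd163 (0.66), where it set 1 strain apart, and smaller for the other members. The progenitors were at 4.03 (C57BL/6J) and 5.21 (A/J), so that 7 strains lay below both, 2 between and 12 above both. In CXB, CXB8/HiAJ (3.14, 3.23 and 4.20) and CXB7/ByJ lay at 3.53 and 3.54, and the other 6 strains at 4.93 to 6.38, with a gap of 1.39. That gap was 0.486 of the Timd4 range in CXB, against 0.490 for Marco and 0.498 for Csf1r, and less for the other members. BXD means ran from 2.77 to 6.65 with a largest gap of 0.65, close to the within-strain SD of 0.595. For Clec4f in BXD the progenitors nearly coincided, DBA/2J at 8.82 and C57BL/6J at 8.79, so nearly every strain mean had to lie outside them. Of 34 strains, 26 lay below both and 8 above, at 6.14 to 9.12, and no share over other genes was computed. For Msr1, whose progenitors lay farther apart (7.69 in C57BL/6J and 8.68 in A/J), 19 of 21 AXB/BXA strains were between them.

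**Figure D2:**
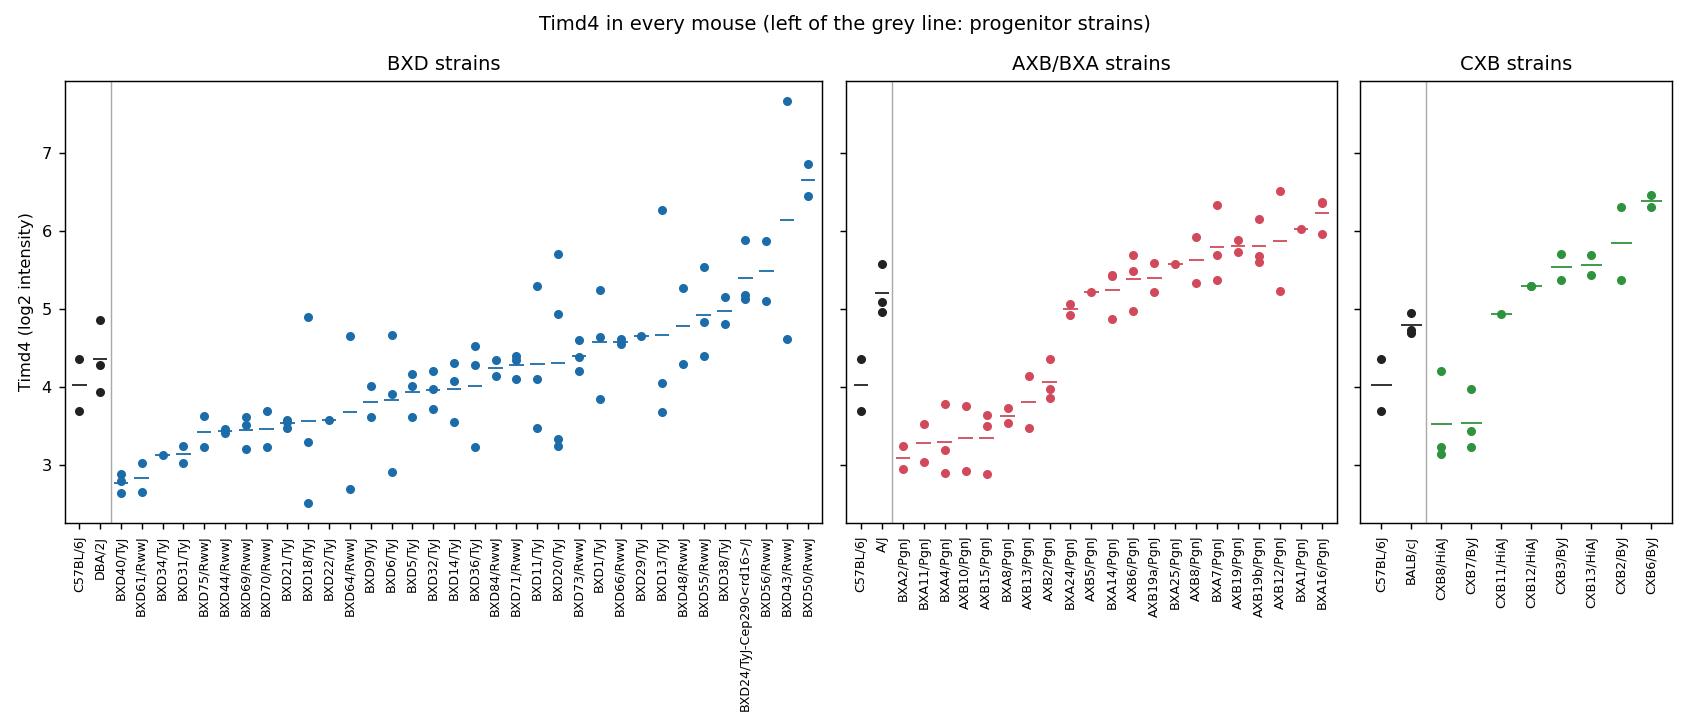
Timd4 log2 intensity (vertical axis) in every mouse of the BXD, AXB/BXA and CXB strains, ordered by strain mean, with a bar at each mean and the progenitors left of the grey line. AXB/BXA means lie at 3.10 to 4.06 or at 4.99 to 6.23, and CXB means at 3.53 to 3.54 or at 4.93 to 6.38.

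The fifth question was whether the members varied together over strains. Of 45 pairs, 31 had a correlation of strain means with an adjusted permutation p under 0.05 (96 strains), 27 positive and 4 negative, and 29 were called by Spearman's rho. The strains share ancestry and are not fully independent. No share over pairs of other genes was computed, so these counts have no background and are a description. Clec4f and Vsig4 had the highest r of any pair, 0.798 (rho 0.775, adjusted permutation p = 2.5e-05, from 1e-05, the smallest that 100000 resamples give). It was 0.765 without the 2 strains farthest from the median Clec4f, 0.843 within BXD, 0.619 within AXB/BXA, 0.795 within the classical strains and 0.807 without the mice that went against their labels. Clec4f correlated with Timd4 at 0.542 (rho 0.536, adjusted permutation p = 2.5e-05, 0.50 without the 2 farthest strains, 0.79 within BXD and 0.59 within the classical strains). Within AXB/BXA and CXB the r of Clec4f with Timd4 was only 0.21 (21 strains) and 0.04 (8 strains).

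A second set consisted of Cd5l, Msr1, C1qa, Adgre1 and Csf1r. Cd5l and Csf1r had an r of 0.70 (rho 0.742), C1qa and Csf1r 0.667, Adgre1 and Csf1r 0.658, C1qa and Adgre1 0.63, Cd5l and C1qa 0.60 and Cd5l and Msr1 0.588, each with an adjusted permutation p of 2.5e-05. Between the sets, Clec4f showed an r of 0.04 with Cd5l (adjusted permutation p = 0.719), -0.13 with C1qa (0.261) and -0.13 with Msr1 (0.249). Vsig4 and Adgre1 bridged them at 0.588. Weaker pairs across the sets were called as well, namely Clec4f with Adgre1 (0.36), Timd4 with Adgre1 (0.28), and Vsig4 with Csf1r (0.34) and Cd5l (0.23). Marco was called with genes on both sides: Vsig4 (0.522), Clec4f (0.45), Timd4 (0.406), Adgre1 (0.521), Csf1r (0.353) and Cd5l (0.241). Its r with Msr1 (0.155) and C1qa (0.139) was not called. Inside the second set Msr1 and Adgre1 had 0.355. The sets were drawn from these same correlations and are a description. Cd163 had negative r with Cd5l (-0.435), Msr1 (-0.395), C1qa (-0.449) and Csf1r (-0.289). For Cd5l this did not hold in ranks (rho -0.22, adjusted permutation p = 0.0524) and r was -0.33 without the 2 strains farthest from the median Cd5l. Positive r of Cd163 was called with Clec4f (0.294), Vsig4 (0.239) and Marco (0.262), the last not called in ranks (rho 0.18, adjusted permutation p = 0.116).

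**Figure D3:**
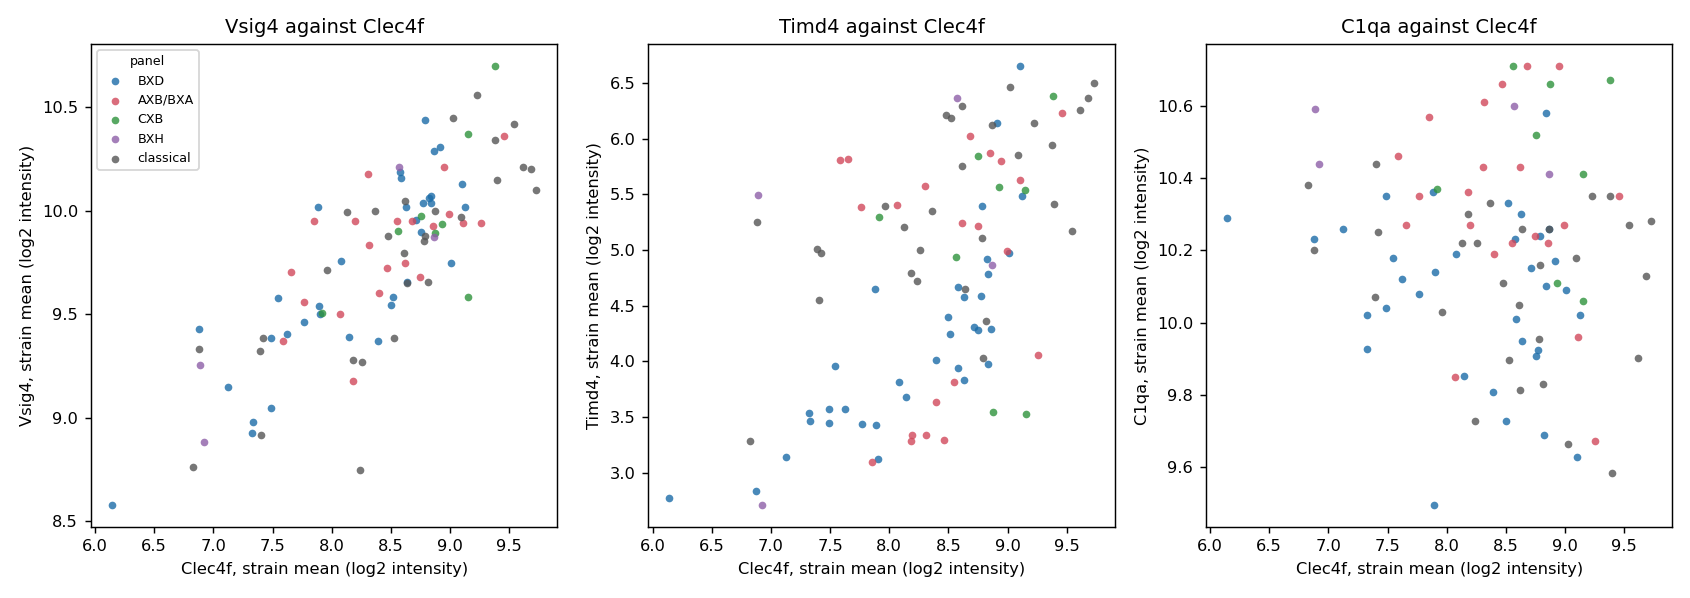
Strain means of Vsig4, Timd4 and C1qa (vertical axes) against Clec4f (horizontal axis), in log2 intensity, each point being a strain and colours the panels. Vsig4 rises with Clec4f (r = 0.798), Timd4 less closely (r = 0.542), and C1qa shows r of -0.13.

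Mice of a strain also deviated together. Over deviations of 211 mice from their strain means, which are not affected by differences between strains, 35 of 45 pairs were called, 30 of them positive. Clec4f and Vsig4 had an r of 0.753, and 0.757 in the 206 mice whose labels held. Timd4 and Marco had 0.676 within strains against 0.406 over strain means, and Marco and C1qa 0.512 against 0.14. Clec4f and Timd4 had 0.488, while Clec4f and C1qa had 0.12 (adjusted permutation p = 0.114). Mice that share a strain mean are not independent of each other, because their deviations cancel out within the strain. The 211 deviations thus leave only 124 residual degrees of freedom. The permutation p-values may therefore be too small and the 35 calls too many. The counts of calls and the size of each r are given as a description.

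**Figure D4:**
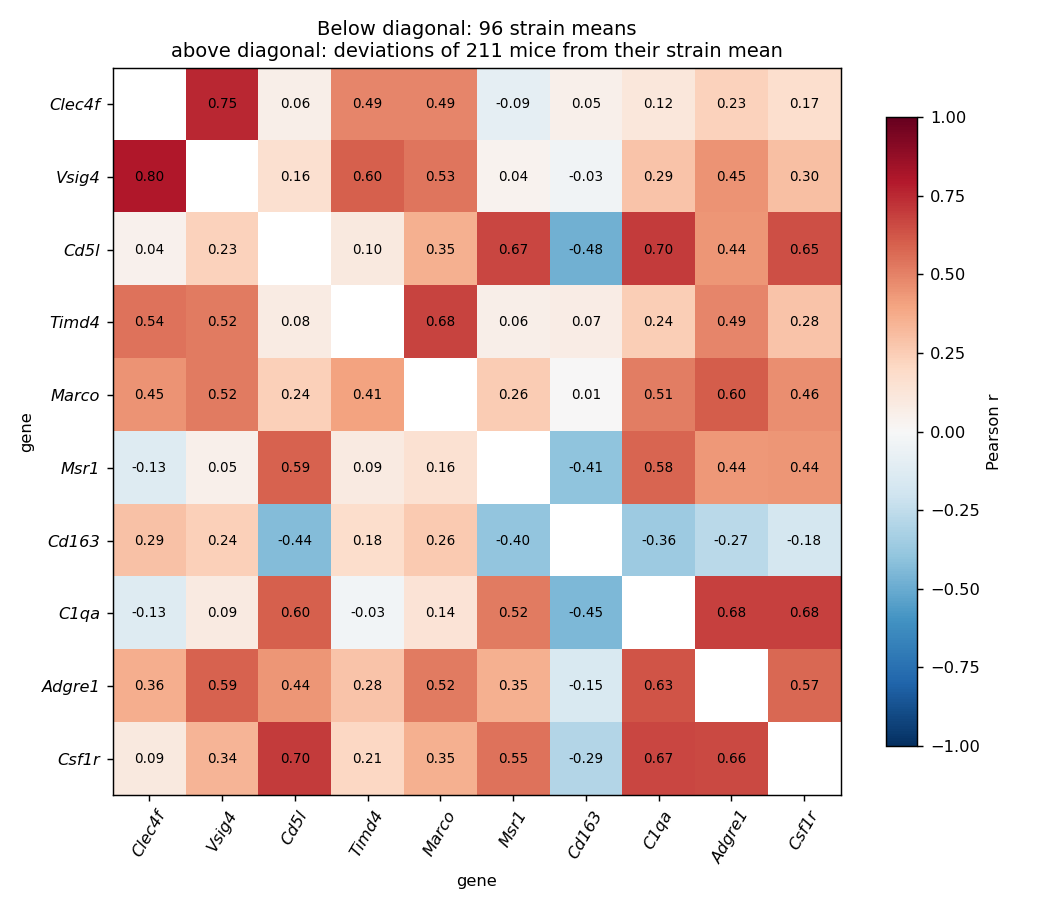
Pearson r between members, over 96 strain means below the diagonal and over deviations of 211 mice from their strain mean above it. Clec4f and Vsig4 reach 0.80 and 0.75, Timd4 and Marco 0.41 and 0.68, and the Cd163 row is negative with Cd5l, Msr1, C1qa and Csf1r.

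Members differed in the marker lists they moved with. Each member was set against the mean level of 14 lists over strain means, from which the member was left out, and 92 of 140 relations were called by permutation. C1qa had an r of 0.865 with the pan-macrophage list, 0.741 with the lipid-associated list and -0.544 with hepatocyte genes. Cd5l had 0.801 and Csf1r 0.804 with the other Kupffer cell genes. Clec4f had -0.343 with pan-macrophage genes (adjusted permutation p = 0.00125), -0.486 with lipid-associated genes (3.41e-05), -0.461 with monocyte genes and 0.374 with sinusoidal endothelial genes. Vsig4 resembled Clec4f, with 0.414 for sinusoidal endothelial genes and -0.305 for lipid-associated genes, but had 0.467 with the other Kupffer cell genes, where Clec4f had 0.19 (adjusted permutation p = 0.0822). Marco had 0.424 with T and NK cell genes, and Cd163 -0.59 with the pan-macrophage list. Lists share genes with each other (Mrc1 is in 3 of them), so the relations are not separate evidence. How often other genes would be called against these lists was not computed, so the count of 92 has no background.

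**Figure D5:**
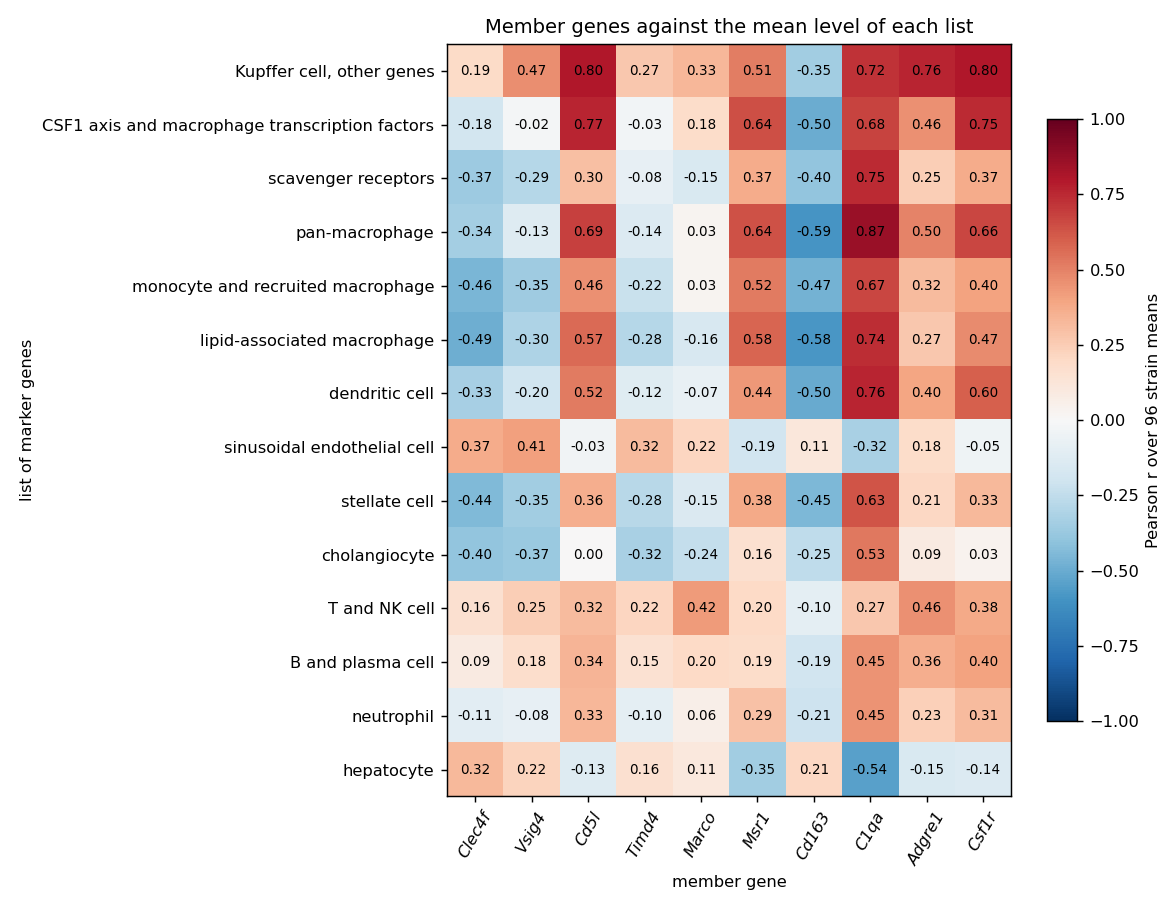
Pearson r over 96 strain means between each member (columns) and the mean log2 level of each marker list (rows). Clec4f, Vsig4 and Timd4 are negative with lipid-associated macrophage genes (-0.49, -0.30 and -0.28) and positive with sinusoidal endothelial genes (0.37, 0.41 and 0.32), while C1qa has the opposite signs (0.74 and -0.32).

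Genes outside the set whose strain means followed each member most closely were taken among genes above the median signal, and are given as descriptions over 96 strains. Pcolce2, a procollagen C-endopeptidase enhancer, was closest to Clec4f (r = 0.807) and Vsig4 (0.865), and for Vsig4 r was 0.922 within BXD and 0.899 within AXB/BXA. Folr2 was next for Clec4f (0.716) and Mrc1, the mannose receptor, next for Vsig4 (0.737). C1qa followed C1qc (0.943) and C1qb (0.935), which encode the other C1q chains and lie beside it at chr4:136880126-136892936 (GRCm38.p6), with C1qa at chr4:136895916-136898844. Cd5l followed Epb41l3 (0.885) and Csf1r followed Aif1, a macrophage calcium-binding protein (0.796). Timd4, at chr11:46810786-46844333, was closest to its paralog Timd2 at chr11:46668960-46707107 (0.607), and neither could be checked here for probes that match the other. Marco followed the adhesion receptor Adgre4 (0.646), Msr1 Cd300lb (0.734), Adgre1 Kctd12 (0.734) and Cd163 the elongase Elovl3 (0.522).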

How the data were processed

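Hepatic RNA of 220 female mice from 96 maternal strains was measured on Affymetrix HT MG-430 PM arrays, 1 per mouse. The authors deposited log2 RMA values per probe set, which are background-corrected, quantile-normalized and summarised over probes. GCOS and RMA are the tools in the submitters' processing notes, without a version in the sources used here. Of 45141 rows, 104 were array controls. The platform annotation gave 1 symbol to 28898 probe sets, several to 551 and none to 15588. No column came from another sample. No pair of arrays was identical.

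Groups were the maternal strains in the labels, and replicate numbers follow accession order. The labels give no litter, cage or day, so p-values measure only the spread between these mice. Strain, progenitor and single-strain contrasts were fitted with limma 3.58.1 in R 4.3.3 over all 220 mice (124 residual degrees of freedom), panels over strain means, and strain effects over the 87 strains with 2 or more mice. All tests were two-sided, with Benjamini-Hochberg adjustment across the 45037 probe sets, and called under 0.05. For the contrasts of each strain against the others, the adjustment ran across all probe sets and all strains together. The share is the variance component for strain, from random effects, divided by the total. Relations were permutation tests with 100000 resamples (Python 3.11.15, numpy 2.4.6, scipy 1.17.1), adjusted over 45 pairs or 140 member and list pairs. Scripts were tested on simulated data. The number of arrays limits the precision.

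For each member, the text names the 3 highest and 3 lowest strains, the progenitors, up to 3 genes of most similar strain means among probe sets above the median signal, and up to 4 genes of a list by share or by size of a called difference. Strains with several members called, and mice with divergent values, were chosen after their values were seen. The members and lists were chosen with earlier results of these data known. Alternatives were the filter, a spline of the mouse number in the labels, only the progenitors, a random block, other correlations and leaving out each replicate. A variant under a probe can lower a strain's signal. RefSeq names and promoters are those of GRCm38.p6.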

Additional observations from a re-analysis of the deposited data

How the results depend on the processing

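No paired analysis was possible because replicate numbers were given in accession order and pair no mice. Of the counts of members called, 101 recomputed counts stayed within 1.5 times and 18 did not. Fitted on the 5 progenitor strains alone, 4 members were called in A/J, 1 in DBA/2J, 2 in BALB/cJ and 3 in C3H/HeJ, against 1, 0, 0 and 1, and that fit takes its spread from fewer mice. With probe sets above the median signal alone, which tests fewer features, 2 were called in A/J, Csf1r being added. A spline of the mouse number gave 2 in C3H/HeJ, Clec4f being added (-1.81, adjusted p = 0.0411). Without any 1 of the mice of C3H/HeJ and C57BL/6J, 0 were called there, with the lone mouse assumed to vary like the other strains. The panel test gave 5 in place of 2 with strain as a random block, whose correlation of 0.183 was estimated on 3000 probe sets. Leaving out each replicate gave 5 to 9 members within BXD, 4 to 7 within AXB/BXA, 0 to 2 within CXB and 3 to 9 within the classical strains, and no value could be had for BXH without replicate 1 or 2. Without the mice against their labels, an alternative chosen after seeing the data, 4 were called within BXH. The planned spline of the mouse number, fitted within strains whose numbers span a median of 2 in a range of 1 to 1649, turned Clec4f and Marco to -0.27, Cd5l and Marco to -0.18 and Marco and Adgre1 to -0.0888. A spline fitted over strain means, added after seeing the data, gave 0.47, 0.25 and 0.54 for the same pairs. Among other values, 712 kept their direction and side of the threshold, 11 passed it newly and 20 no longer did. The cause was not tested.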

Other observations

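In 2 mice with high Cd163, the values of several other members were the lower ones of their strains. The AXB8/PgnJ mouse with Cd163 at 4.86 had Cd5l at 11.45, C1qa at 9.44, Msr1 at 7.34 and Csf1r at 6.92, and the other mouse of that strain, with Cd163 at 2.39, had 12.44, 10.48, 8.10 and 7.58. The BXD55/RwwJ mouse with Cd163 at 4.28 had Msr1 at 6.89 and C1qa at 9.41, the lowest of the 3 mice of that strain in both. In these mice Clec4f read 8.96 and 8.86, close to the other mice of their strains (9.26 in AXB8/PgnJ, 8.86 and 8.75 in BXD55/RwwJ). Another mouse with high Cd163, of BXD50/RwwJ (4.46), had the lower Cd5l (11.80 against 12.11) and C1qa (9.55 against 9.71) of its strain. It had the higher Marco (8.18 against 7.89) and Timd4 (6.86 against 6.45). These mice and members were chosen after their values were seen and carry no test.

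By Dixon's criterion, 30 groups were examined for a single value far from the others, and none had one. For each member these were the mice of BXD20/TyJ and the strain means of CXB and of BXH. No strain with fewer than 4 mice was examined, so the mice of AXB8/PgnJ, BXD50/RwwJ and BXD55/RwwJ described above were not covered.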
